A study of Sus scrofa with 2 samples.

Results

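The desmosome genes examined here are DSG1, DSG2 and DSG3 (desmogleins), DSC1 and DSC2 (desmocollins), DSP (desmoplakin), JUP (plakoglobin) and PKP1 (plakophilin 1), in single cells of pig skin. They were chosen from a list of 9 gene symbols, of which 8 were found among the 31908 genes of the count matrices. The remaining symbol, DSC3, was not analysed here. The study profiled cells dissociated from the dorsal skin of male farm pigs with a droplet 3′ kit, and it counted each transcript once through its unique molecular identifier (UMI). One library came from cells labelled fresh, with no treatment, and the other from cells frozen in 90% FBS + 10% DMSO, here called cryopreserved. In both, dead cells were removed by flow sorting. The extraction protocol printed for the fresh sample also describes freezing, and no source used here states if 1 animal gave the cells of both. Each condition has a single library, which leaves replicate error unknown. No test was therefore run, and all intervals are exact 95% intervals that cover counting error only.

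Desmosomes are the spot-like junctions that tie the keratin filaments of neighboring epidermal cells together. Desmogleins and desmocollins are cadherins that cross the membrane and bind each other between cells. Plakoglobin and plakophilins hold their tails in a plaque, and desmoplakin links that plaque to the keratins. In human and mouse epidermis DSG3 is known as a cadherin of the lower layers and DSG1 and DSC1 as cadherins of the upper layers. DSG1 is the target of autoantibodies in pemphigus foliaceus and DSG3 in pemphigus vulgaris. Plakoglobin is also part of adherens junctions, so it is found in cells without desmosomes.

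The 2775 fresh and 4223 cryopreserved cells within the study's limits on genes, UMIs and mitochondrial share had medians of 11017 and 7945 UMIs, and the libraries shared 5 barcodes among these cells. Clustering without the desmosome genes as features gave 22 clusters, of which 4 were keratinocyte-like. Each of the 4 carried the 9 keratinocyte markers found in the matrices, and together they held 530 fresh and 1057 cryopreserved cells with medians of 14856.5 and 9693 UMIs. Their stage was read from 4 keratins: KRT5 and KRT15 mark the basal layer, and KRT1 and KRT10 replace them as cells leave it. Cells with at least 20 UMIs of these keratins were placed by the share of KRT1 and KRT10 among them. Below 5% a cell was called basal, from 5 to 25% lower middle, from 25 to 75% upper middle, and from 75% top. The basal range held 322 fresh and 620 cryopreserved cells, the lower middle 52 and 149, the upper middle 54 and 109, and the top 71 and 146. These are ranges of a score and not cell types, and within 2 percentage points of the lowest boundary lay 44 fresh and 132 cryopreserved cells. Different clusters supplied the ends: cluster 3, led by KRT1 and KRT10, held 70 of the 71 fresh and 143 of the 146 cryopreserved top cells. Most basal cells were in cluster 2, led by DLK2, ASCL2 and KRT15, and cluster 10, with PTHLH and SOX9. Median UMIs per cell ran from 14485 in the basal to 18874 in the top range of the fresh library and from 9018 to 11468.5 in the cryopreserved one, and the part of this depth difference in the results was not tested.

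The 5 cadherin genes lie near each other on chromosome 6 of the Sscrofa11.1 genome, which is also the build of the matrices. Genes between them were not looked for. In the RefSeq annotation DSC2 spans chr6:114982259-115021332 and DSC1 chr6:115042225-115076097 on the minus strand, followed on the plus strand by DSG1 at chr6:115237836-115272944, DSG3 at chr6:115352005-115383750 and DSG2 at chr6:115400223-115453763. DSP lies at chr7:4862649-4915626, PKP1 at chr10:23689394-23735457 and JUP at chr12:20902395-20931208, all on the plus strand. The 250 bases before the annotated start are shown for DSC1 and DSG1, which differed most between the stages, and for DSG2, which ran the other way. They are read 5′ to 3′ on each gene's strand, with matches to GGGNGNGG, a motif of the KLF family, in capitals on either strand.
DSC1 (chr6:115076098-115076347, minus strand): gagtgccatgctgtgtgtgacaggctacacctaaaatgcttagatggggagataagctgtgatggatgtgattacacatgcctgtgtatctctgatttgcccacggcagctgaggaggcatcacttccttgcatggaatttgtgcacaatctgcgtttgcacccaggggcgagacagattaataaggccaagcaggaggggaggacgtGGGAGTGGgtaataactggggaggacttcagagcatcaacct
DSG1 (chr6:115237586-115237835, plus strand): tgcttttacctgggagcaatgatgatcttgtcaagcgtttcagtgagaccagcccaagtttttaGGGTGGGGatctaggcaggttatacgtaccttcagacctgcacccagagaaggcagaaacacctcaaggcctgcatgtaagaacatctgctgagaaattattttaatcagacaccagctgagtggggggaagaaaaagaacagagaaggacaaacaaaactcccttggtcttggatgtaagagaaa
DSG2 (chr6:115399973-115400222, plus strand): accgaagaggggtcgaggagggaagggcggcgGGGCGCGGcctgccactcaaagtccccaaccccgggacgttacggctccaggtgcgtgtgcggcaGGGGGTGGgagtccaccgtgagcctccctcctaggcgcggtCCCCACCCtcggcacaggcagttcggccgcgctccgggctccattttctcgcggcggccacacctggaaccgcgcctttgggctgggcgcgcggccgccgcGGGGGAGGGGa
The DSG2 stretch is 74% G and C, against 51.2% for DSC1 and 45.6% for DSG1. Among all 8 genes the G and C content was 34.8% for DSG3, 46% for DSC2, 64.8% for JUP, 77.6% for PKP1 and 82.8% for DSP. GGGNGNGG matched in 5 of the 8, namely DSG1, DSG2, DSC1, DSP and PKP1, beside 56.8% of the 19556 protein-coding promoters of this length. The C/EBP motif TTNNGNAA matched only in DSG3, beside 31.7% of promoters. The AP-1 motif TGANTCA and the grainyhead motif AACNGGTT, held by 5.27% and 1.40% of promoters, matched in none of the 8. In the 3 stretches printed no other searched motif overlapped the capitals.

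The upper-layer cadherins DSC1 and DSG1 showed the widest difference between the stages. Levels are given in CPM, the UMIs of a gene after the UMIs of the summed cells are scaled to a total of 1000000. DSC1 was at 48.2 CPM in the fresh basal range, 142 in the lower middle, 332 in the upper middle and 637 in the top range. In the cryopreserved library the same ranges gave 35.5, 183, 331 and 688 CPM. In both libraries each range was thus above the one before, and no intervals of neighboring ranges overlapped. The top range was 13.2-fold above the basal range in the fresh library (interval 11.4 to 15.4) and 19.4-fold in the cryopreserved library (16.7 to 22.6). DSG1 was at 317, 582, 1040 and 1324 CPM from the fresh basal to the top range, and at 272, 562, 921 and 1497 CPM in the cryopreserved library. It was also higher in each range than in the one before, and the ratio of top to basal was 4.18 (3.89 to 4.49) and 5.49 (5.16 to 5.85). Over all genes with at least 50 UMIs in both ranges together, DSC1 ranked 29 of 8264 by this ratio in fresh cells and 19 of 9071 in cryopreserved cells.

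**Figure D1:**
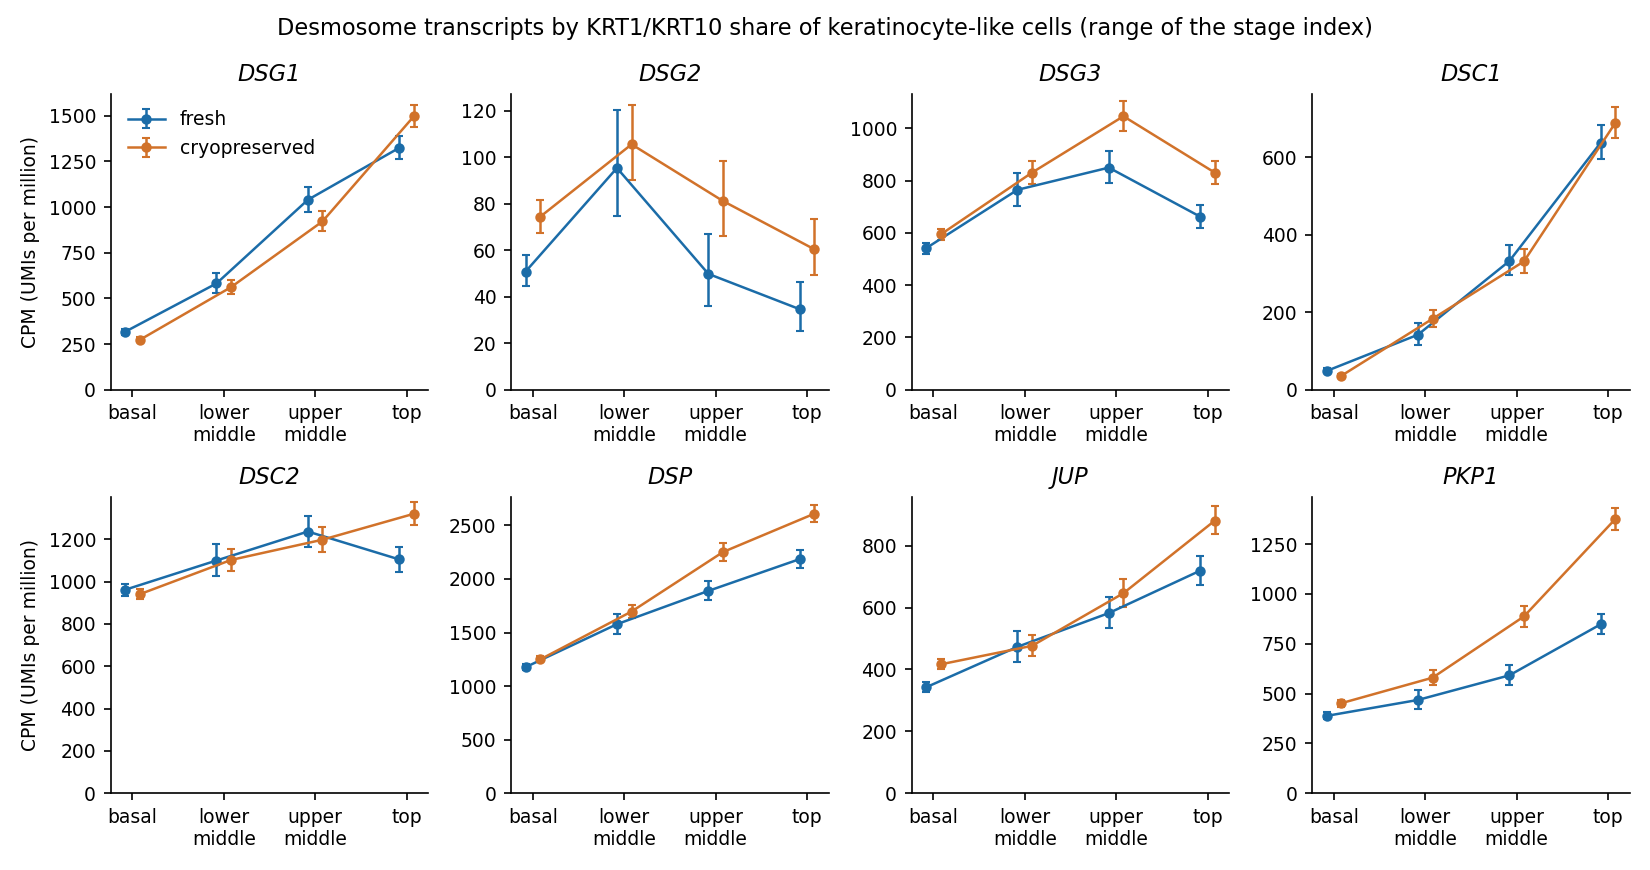
Level of each desmosome gene in CPM (vertical axes start at 0 and differ between panels) in the 4 ranges of the KRT1 and KRT10 share, for the fresh (blue) and cryopreserved (orange) library. Points are summed cells and bars exact 95% Poisson intervals. DSG1, DSC1, DSP, JUP and PKP1 are higher in each successive range, while DSG3 peaks in the upper middle and DSG2 in the lower middle range.

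The other cadherins differed less between the top and the basal range. DSG3, the desmoglein of the lower layers, was at 541, 764, 849 and 662 CPM from the basal to the top range of the fresh library and at 594, 830, 1046 and 830 CPM in the cryopreserved one. Over these 4 ranges it was lowest in the basal and highest in the upper middle range of both. The top range was itself uneven, with DSG3 at 1119 CPM in fresh cells from 75 to 90% and 477 CPM in those from 90 to 100%, and at 1210 and 679 CPM in cryopreserved cells. The clusters that held most basal cells also differed in DSG3 over all their cells. Fresh levels were 375 CPM in cluster 2 and 803 CPM in cluster 10, and cryopreserved levels 446 and 745 CPM. The DSG3 ratio of the top to the whole basal range was 1.22 (1.13 to 1.32) and 1.40 (1.31 to 1.49). The fresh direction turned when the stage was read from KRT5 and KRT1 alone, to a log2 ratio of -0.28 in place of 0.29. One fresh top cell held 13.1% of the DSG3 UMIs of its range. DSC2, the desmocollin that many epithelia share, was at 961, 1100, 1237 and 1105 CPM in the fresh and 940, 1102, 1198 and 1321 CPM in the cryopreserved library. From its lowest to its highest range it varied least among the 8 genes. In the cryopreserved library DSC2 was higher in each range than in the one before. Its top to basal ratios were 1.15 (1.08 to 1.22) and 1.40 (1.34 to 1.48). DSG2, a desmoglein best known from simple epithelia and heart muscle, was at 50.8, 95.4, 49.8 and 34.6 CPM in the fresh and 74.4, 106, 81.2 and 60.4 CPM in the cryopreserved library. Summed over the clusters, it was highest in the lower middle range. That range was uneven too, with fresh DSG2 at 158 CPM from 5 to 10% and 60.1 CPM from 10 to 25%. Cryopreserved DSG2 was at 144 and 67.2 CPM. DSG2 was the only one of the 8 lower in the top than in the basal range, with ratios of 0.681 (0.482 to 0.944) and 0.812 (0.647 to 1.01). The cryopreserved interval includes 1. In cryopreserved cells DSG2 was at 118 CPM from 75 to 90% and 37.6 CPM from 90 to 100%, and in fresh cells at 35.6 and 34.2 CPM. Single cells weighed on DSG2, since the richest one held 18.1% of the UMIs of the fresh lower middle range and 20.5% of those of the upper middle range.

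The plaque genes were all higher in the top than in the basal range. DSP, which anchors the keratins, went from 1177 through 1578 and 1889 to 2186 CPM in the fresh and from 1249 through 1696 and 2252 to 2610 CPM in the cryopreserved library. JUP went from 342 through 473 and 582 to 719 CPM and from 416 through 476 and 646 to 881 CPM. PKP1, the plakophilin of stratified epithelia, went from 388 through 468 and 591 to 847 CPM and from 451 through 579 and 887 to 1376 CPM. Each of these genes was higher in each range than in the one before in both libraries. The ratios of top to basal in the fresh library were 1.86 for DSP (1.77 to 1.94), 2.10 for JUP (1.94 to 2.28) and 2.19 for PKP1 (2.02 to 2.36). In the cryopreserved library they were 2.09 for DSP (2.01 to 2.17), 2.12 for JUP (1.98 to 2.26) and 3.05 for PKP1 (2.88 to 3.22).

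At a 2-fold limit, DSG1, DSC1, JUP and PKP1 were higher in the top range of the fresh library, 4 of 8 genes, beside 4.61% of all 8264 genes tested. In the cryopreserved library DSP joined them, 5 of 8, beside 4.60% of 9071 genes. None of the 8 was at least 2-fold lower, beside 16.8% and 15.5% of all genes. DSP lay close to the limit on either side, and JUP close above it. The log2 ratios of the 8 genes had a median of 0.98 for fresh and 1.07 for cryopreserved cells, beside medians of -0.24 and -0.18 over all genes tested. Relative to those medians, DSC1 lay at 3.97 and 4.45 and DSG1 at 2.30 and 2.64 on the log2 scale. KRT1 and KRT10 stood at 23012 and 40220 CPM in the top range of the fresh library. With the 4 keratins left out of the total, a choice made after seeing the data, the same counts of 4 and 5 were found. With the range boundaries moved to 10% and 50% the counts were 3 and 4.

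For DSC1 and DSG1 the share of cells with a UMI gave the same order of the ranges at equal depth. After each cell was thinned to 1000 UMIs, which left out 1 fresh and 1 cryopreserved basal cell and 4 cryopreserved top cells, DSC1 was found in 4.05% of basal and 43.7% of top cells in the fresh library and in 3.55% and 47.9% in the cryopreserved one. Unthinned, these shares were 32.9% and 97.2%, and 20.3% and 94.5%. DSG1 was found in 28.7% of thinned basal and 67.6% of thinned top cells of the fresh library and in 22.6% and 78.2% of the cryopreserved library. The other genes did not always keep the order of their CPM. In the fresh library DSG3 was found in 36.8% of thinned basal and 35.2% of thinned top cells, and JUP in 27.1%, 46.2%, 33.3% and 52.1% from the basal to the top range. In the cryopreserved library DSG2 was found in 7.11% of thinned basal and 7.75% of thinned top cells. As a measure of free RNA, the T or NK-like cells, at medians of 5942 and 4694 UMIs, held no UMI of DSC1 or DSG1 in 65 fresh and 98 cryopreserved cells. With 3 UMIs taken as the limit that a count of 0 allows, their levels could be up to 6.73 and 5.91 CPM, and the exact Poisson upper limits are 8.27 and 7.26 CPM.

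With the ranges, the make-up of the cadherins differed too. The share of DSG1 among all desmoglein UMIs was 34.9% in the basal, 40.3% in the lower middle, 53.6% in the upper middle and 65.5% in the top range of the fresh library. In the cryopreserved library it was 28.97%, 37.5%, 44.98% and 62.7%. DSG3 made up 59.5% of basal and 32.7% of top desmoglein UMIs in the fresh and 63.1% and 34.8% in the cryopreserved library. The share of DSG1 was thus higher and that of DSG3 lower in each range than in the one before. DSG2 made up 5.6% of basal and 1.7% of top desmoglein UMIs in the fresh and 7.9% and 2.5% in the cryopreserved library. Among desmocollin UMIs, where DSC3 was not counted, DSC1 went from 4.8% to 36.6% in the fresh and from 3.6% to 34.3% in the cryopreserved library. The summed desmogleins stood at 909 CPM in the basal and 2021 CPM in the top range of the fresh library and at 940 and 2387 CPM in the cryopreserved one. UMIs of a 3′ kit are not scaled by length, but how well each gene is captured can differ, so these shares compare ranges and do not measure the ratio of the genes within a range.

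**Figure D2:**
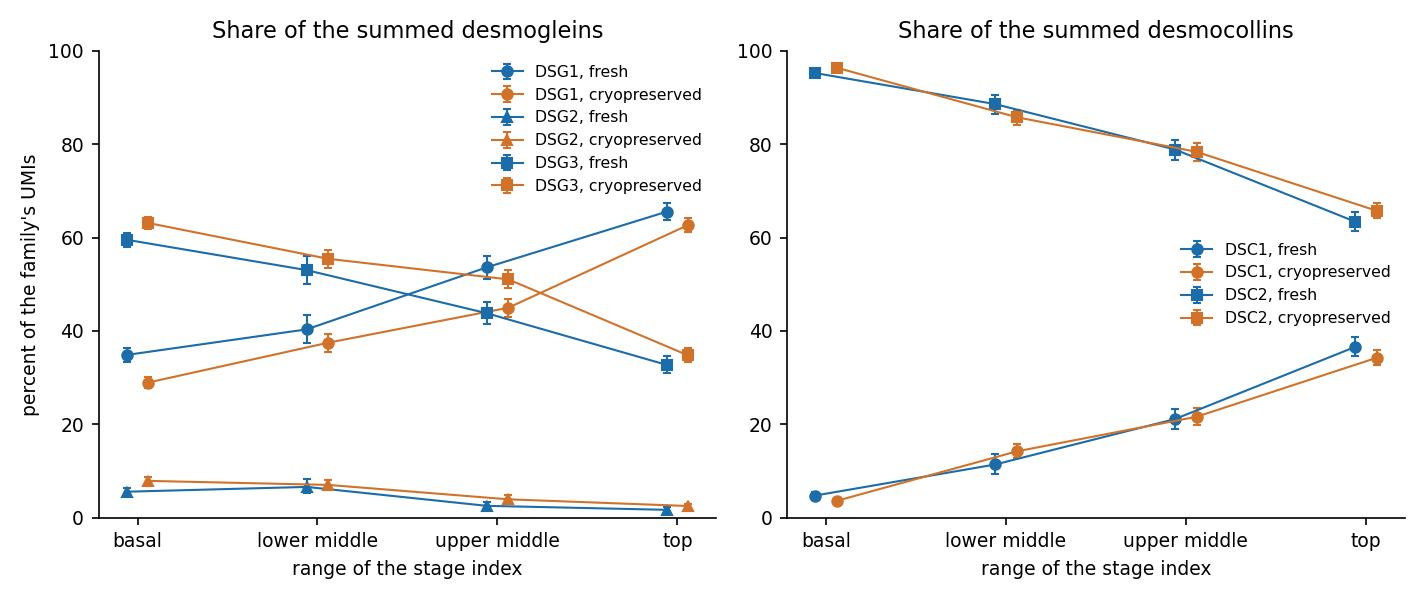
Percent of the desmoglein UMIs (left) and of the DSC1 and DSC2 UMIs (right) that each gene held in the 4 ranges, in the fresh (blue) and cryopreserved (orange) library. Bars are exact 95% binomial intervals. The share of DSG1 is higher and that of DSG3 lower in each successive range of both libraries, and DSC1 goes from under 5% to above 34%.

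DSG2 and DSG3 also differed between finer clusters of keratinocytes. At the higher clustering resolution of 1.2, the KRT1 and KRT10 cluster came apart. One portion of 87 fresh and 208 cryopreserved cells was led by SPRP, SERPINB2, FGFBP1 and CLDN4. Another of 86 and 154 cells was led by KRT1, KRT10, CALML5 and MT4. DSG2 was at 102 CPM in the SERPINB2 portion and 14.2 CPM in the KRT1 portion of the fresh library, a ratio of 7.15 (4.47 to 12.04). In the cryopreserved library it was at 162 and 11.8 CPM, a ratio of 13.7 (8.82 to 22.4). DSG3 was also higher in the SERPINB2 portion, at 1102 against 466 CPM in the fresh and 1231 against 456 CPM in the cryopreserved library, with ratios of 2.36 (2.16 to 2.59) and 2.70 (2.49 to 2.92). DSG1, DSC1 and PKP1 ran the other way, and so did DSP and JUP by less. DSP had ratios of 0.913 (0.866 to 0.961) and 0.765 (0.734 to 0.798), and JUP of 0.837 (0.761 to 0.921) and 0.715 (0.663 to 0.771). DSC1 was at 202 CPM in the SERPINB2 and 612 CPM in the KRT1 portion of the fresh library and at 200 and 677 CPM in the cryopreserved one. PKP1 was at 509 and 839 CPM in the fresh library, and at 662 and 1362 CPM in cryopreserved cells. DSC2 was nearly level, with ratios of 1.07 (0.998 to 1.15) and 0.902 (0.851 to 0.956).

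The SERPINB2 and KRT1 portions lay at different stages. Their median KRT1 and KRT10 shares were 19.3% and 86.2% in fresh and 21.2% and 88.5% in cryopreserved cells. They still overlapped on the keratin scale, which allowed a comparison within the top range, over 20 and 50 fresh and 48 and 91 cryopreserved cells. There DSG2 was at 68.0 in the SERPINB2 and 20.4 CPM in the KRT1 portion of the fresh library, a ratio of 3.33 (1.76 to 6.45). It was at 132 and 10.4 CPM in the cryopreserved library, a ratio of 12.7 (6.67 to 26.6). DSG3 kept ratios of 1.93 (1.68 to 2.21) and 3.42 (3.05 to 3.85), and DSC1 of 0.525 (0.437 to 0.628) and 0.498 (0.428 to 0.576). The DSG1 ratios were 0.820 and 0.785 there, against 0.639 and 0.537 over the whole portions. PKP1 had ratios of 0.580 and 0.567, DSP of 0.805 and 0.864, and DSC2 of 1.13 and 1.11. For JUP they were 0.917 (0.791 to 1.06) and 0.905 (0.807 to 1.01), and both intervals include 1. Within the top range the portions still differed on the keratin scale, with median KRT1 and KRT10 shares of 90.7% and 99.1% in fresh and 94.6% and 98.4% in cryopreserved cells. In cells from 90 to 100%, where the medians were 97.0% and 99.7% and then 97.1% and 99.2%, the DSG2 ratios were 3.53 (1.64 to 7.73) and 8.19 (4.05 to 17.9) and the DSG3 ratios 2.26 (1.86 to 2.74) and 3.27 (2.83 to 3.77). From 75 to 90%, over 17 cells of each portion of the cryopreserved library with medians of 84.1% and 82.8%, DSG2 had 36 UMIs in the SERPINB2 and 0 in the KRT1 portion, and the DSG3 ratio was 3.39 (2.71 to 4.27). The 8 and 12 fresh cells there gave ratios of 3.15 (0.879 to 14.003) for DSG2 and 1.26 (1.04 to 1.54) for DSG3. DSG2 was low in both the KRT15-rich cluster led by ASCL2 and SOX6, at 19.997 CPM fresh and 17.1 CPM cryopreserved, and the KRT1 portion. It lay between 51.9 and 123 CPM in the MMP3, PTHLH and dividing clusters of both libraries. Inside the SERPINB2 portion the order of the ranges differed from that of all keratinocyte-like cells. DSG2 there was at 157 CPM in the basal and 93.3 CPM in the lower middle range of the fresh library. In the cryopreserved library it was at 214 and 179 CPM, and the intervals overlapped in both libraries. Cryopreserved DSG3 there was at 1477 CPM in the upper middle and 1478 CPM in the top range. The clusters were drawn without the desmosome genes, and these comparisons were chosen after the values were seen.

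**Figure D3:**
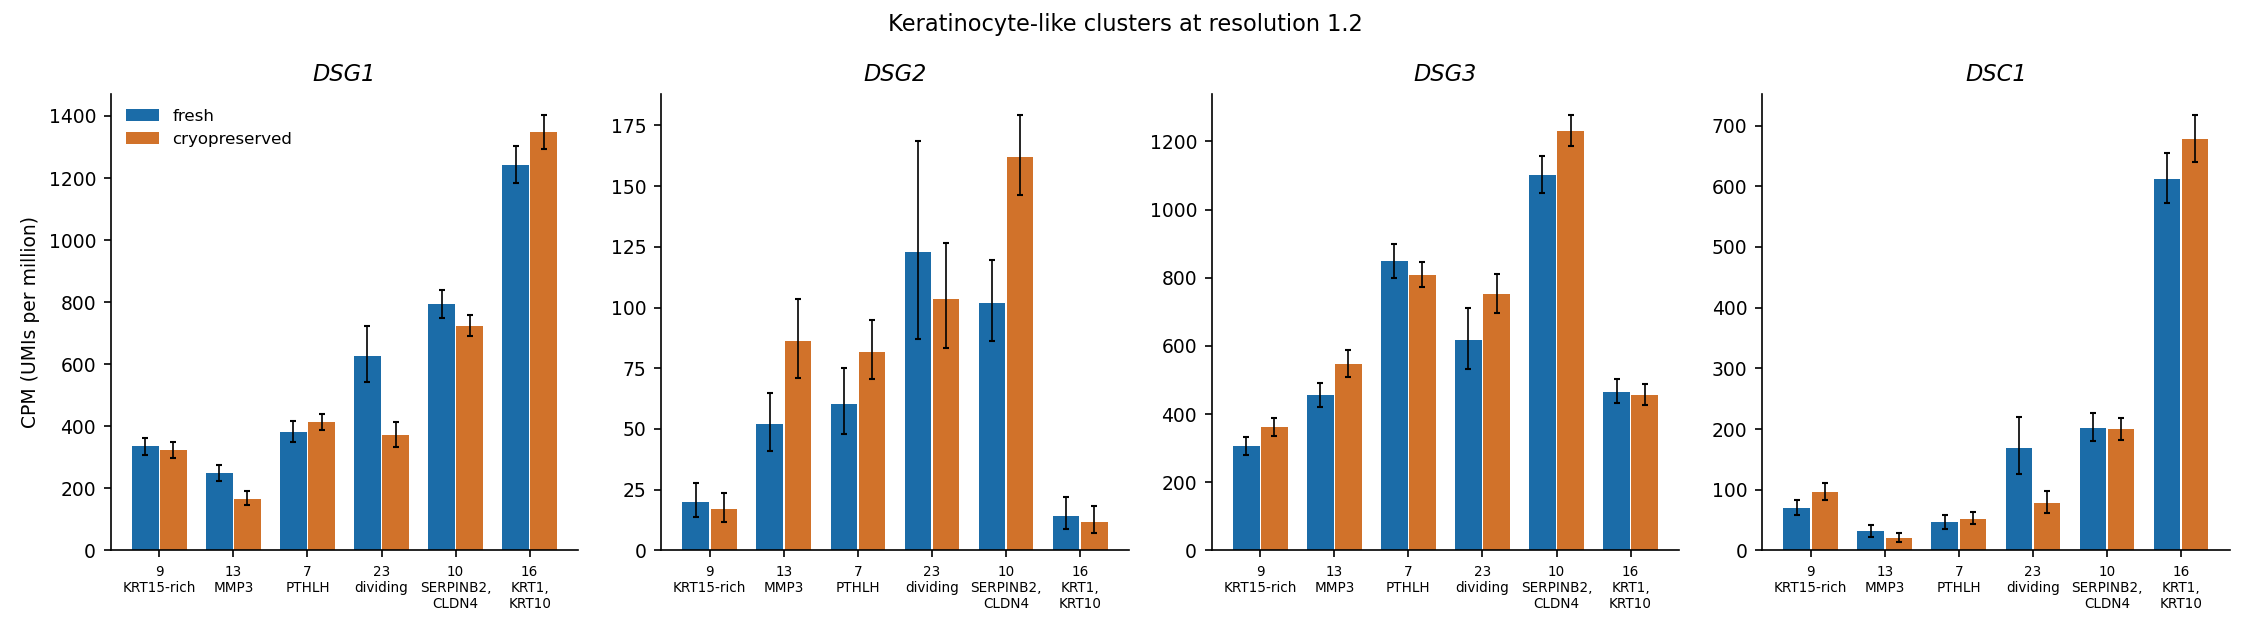
CPM of DSG1, DSG2, DSG3 and DSC1 in the 6 keratinocyte-like clusters at resolution 1.2, named by leading genes, in the fresh (blue) and cryopreserved (orange) library. Bars start at 0, and thin lines are exact 95% Poisson intervals. DSG2 and DSG3 are highest or near highest in the SERPINB2 and CLDN4 cluster and lower in the KRT1 and KRT10 cluster, where DSG1 and DSC1 are highest.

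Within the basal range the cells were also divided by KRT15, a keratin of the deep basal layer and the hair follicle bulge. The KRT15-rich group held the upper tertile of the KRT15 share among KRT5 and KRT15 UMIs, above 14.9%, with 108 fresh and 206 cryopreserved cells. The KRT15-poor group, up to 4.58%, held 97 and 217 cells. DSC1 was at 30.9 CPM in the rich and 78.4 CPM in the poor group of the fresh library and at 22.6 and 52.6 CPM in the cryopreserved one. The ratios of rich to poor were 0.394 (0.273 to 0.560) and 0.430 (0.294 to 0.618). DSC1 was the only one of the 8 at least 2-fold lower in this comparison, beside 1.30% of 6484 genes in fresh cells and 1.93% of 7549 in cryopreserved cells, and none was at least 2-fold higher, beside 1.90% and 2.21%. DSG1 was at 242 and 440 CPM in the fresh and 203 and 374 CPM in the cryopreserved library, and DSG3 at 414 and 782 CPM and at 493 and 786 CPM. The ratios were 0.551 and 0.543 for DSG1, and 0.529 and 0.627 for DSG3. DSC2, DSP, JUP and PKP1 had ratios between 0.695 and 0.903. KRT10 itself stood at 114 and 302 CPM in the rich and poor group of the fresh library and 119 and 279 CPM in the cryopreserved library, so the poor group also lay somewhat further along the keratin scale. The groups also differed in their clusters: cluster 3 and the dividing cluster 18 held 16 and 5 of the fresh poor cells and 2 and 0 of the rich ones, and 26 and 31 of the cryopreserved poor cells and 9 and 7 of the rich ones. Within cluster 2 alone DSC1 kept log2 ratios of -1.33 and -1.04, and within cluster 10 alone it rested on 3 and 4 UMIs in the rich groups. Fresh DSG3 had a ratio of 0.796 within cluster 2 and 0.499 within cluster 10, and cryopreserved PKP1 of 0.871 and 0.432. Cryopreserved DSG1 had ratios of 0.610 and 0.428. Which genes passed 2-fold depended on the setting, since cryopreserved DSC1 was at a log2 ratio of -0.93 as a mean of each cell's CPM, while fresh DSG3 was at -1.03 and cryopreserved DSG1 at -1.15 with the stage read from KRT5 and KRT1.

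Outside the keratinocytes most desmosome transcripts were rare, and JUP was the main exception. All 8 were highest in the keratinocyte-like cells of both libraries, where fresh and cryopreserved levels were 591 and 586 CPM for DSG1, 51.7 and 77.8 for DSG2, 621 and 719 for DSG3, 186 and 196 for DSC1, 1032 and 1054 for DSC2, 1471 and 1647 for DSP, 447 and 525 for JUP, and 488 and 664 for PKP1. In the other 7 named lineages DSG1 did not exceed 7.14 CPM, DSC1 2.68, PKP1 8.03 and DSG3 10.2 CPM. JUP was at 77.6 CPM in fresh and 67.2 CPM in cryopreserved fibroblast-like cells, with a UMI in 51.8% and 42.7% of them. Mural-like cells, the smooth muscle and pericytes of vessels, had 78.0 and 62.0 CPM, and lymphatic endothelial-like cells 98.9 and 109 CPM. Blood endothelial-like cells had less, at 17.8 and 27.0 CPM, and T or NK-like cells 6.73 and 3.94 CPM. The intervals of fibroblast-like, mural-like and lymphatic-like cells lay above those of the T or NK-like and blood endothelial-like cells in both libraries, while fibroblast-like and mural-like cells overlapped. Thinned to 1000 UMIs, JUP was present in 7.36% of fresh fibroblast-like cells and in 5.63% of cryopreserved ones, beside 0% and 1.02% of T or NK-like cells.

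Lymphatic endothelial-like cells also held desmoplakin. DSP was at 55.6 CPM in 107 fresh (interval 40.6 to 74.4) and 45.1 CPM in 135 cryopreserved cells (29.7 to 65.6). A DSP UMI was present in 26.2% and 14.8% of these cells, beside 1.49% and 1.48% of blood endothelial-like cells and 1.56% and 1.65% of fibroblast-like cells. The DSP level of blood endothelial-like cells in the cryopreserved library, 20.6 CPM, rested to 53.8% on 1 cell. DSG2 was also seen there, at 8.65 and 10.0 CPM, but on 7 and 6 UMIs, and in the fresh library 1 cell held 57.1% of them. DSC2 in lymphatic-like cells was at 9.89 and 3.34 CPM, on 8 and 2 UMIs. DSG1, DSG3 and DSC1 had no UMI in lymphatic-like cells of either library. Without the 5% of cells in each lineage richest in the 4 keratins, lymphatic-like DSP was at 55.6 and 46.4 CPM and fibroblast-like JUP at 76.9 and 66.3 CPM. The 13 DSP UMIs of cryopreserved T or NK-like cells were all in 1 cell.

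**Figure D4:**
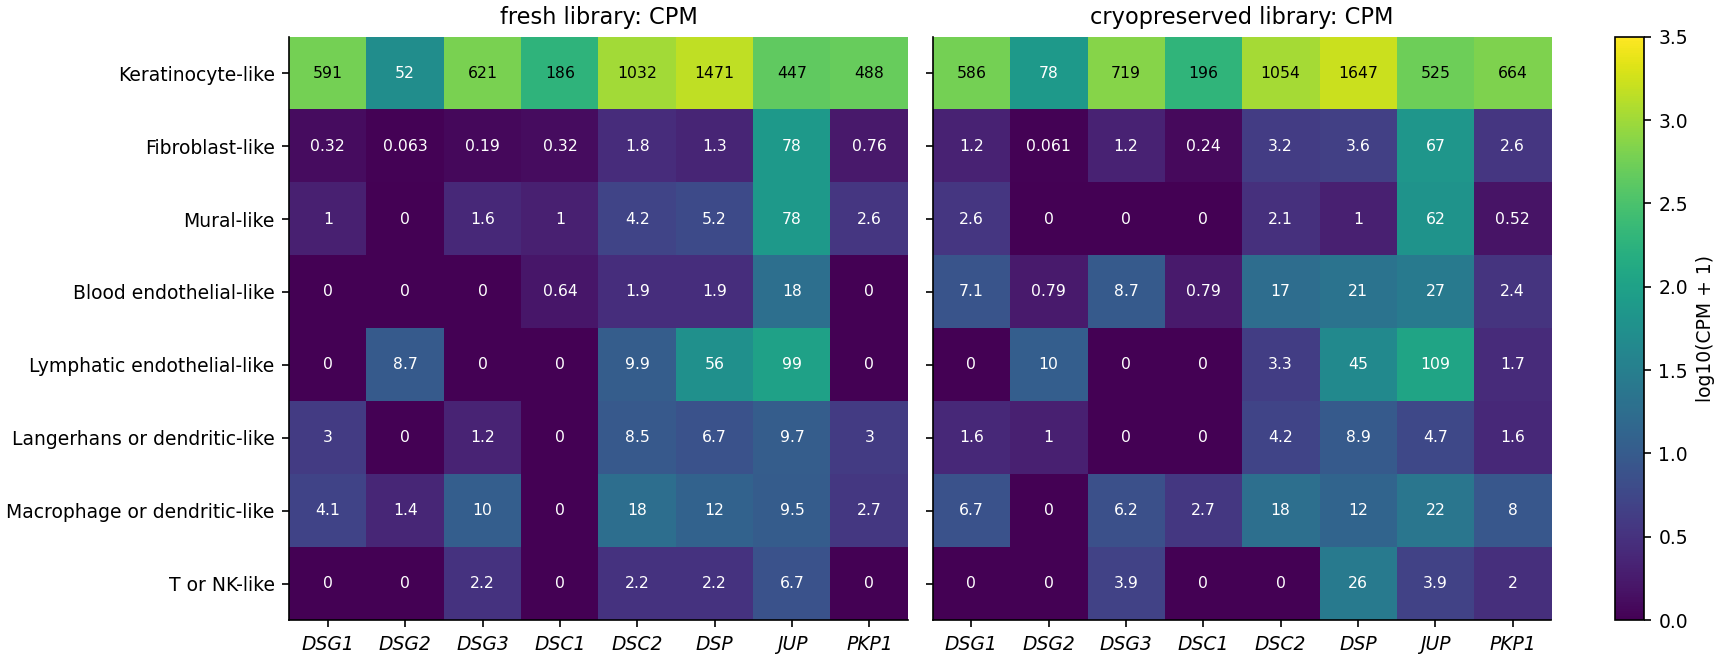
CPM of the 8 desmosome genes in each named lineage, with the value printed in each square and color on a log10(CPM + 1) scale, for the fresh (left) and cryopreserved (right) library. Keratinocyte-like cells are highest in every column, JUP extends to fibroblast-like, mural-like and lymphatic-like cells, and DSP to lymphatic-like cells.

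Between the libraries, the desmosome genes differed by less than 2-fold over all keratinocyte-like cells. None of the 8 passed that limit, beside 2.21% of 10704 genes that were at least 2-fold higher and 0.766% that were lower in the cryopreserved library. The ratio of cryopreserved to fresh CPM was 0.990 for DSG1 (0.953 to 1.03), 1.02 for DSC2 (0.993 to 1.05) and 1.05 for DSC1 (0.982 to 1.12). The intervals of these 3 cadherins include 1. The ratio was 1.12 for DSP (1.09 to 1.15), 1.16 for DSG3 (1.12 to 1.201) and 1.17 for JUP (1.12 to 1.22). PKP1 and DSG2 stood furthest from 1, at 1.36 (1.31 to 1.42) and 1.504 (1.33 to 1.70). Over all 10704 genes the median size of the log2 ratio was 0.20, and PKP1 and DSG2 lay at 0.44 and 0.59. PKP1 was higher in the cryopreserved library in all 4 ranges, with ratios of 1.16 in the basal, 1.24 in the lower middle, 1.4999 in the upper middle and 1.62 (1.51 to 1.75) in the top range. DSG2 was at 1.46, 1.11, 1.63 and 1.74, and its lower middle interval of 0.836 to 1.48 includes 1. DSG3, DSP and JUP also had higher CPM in the cryopreserved library in all 4 ranges. In the lower middle range JUP was nearly level, at 476 against 473 CPM. DSG1 and DSC1 were lower in the basal range of the cryopreserved library, at 0.860 (0.8002 to 0.924) and 0.737 (0.607 to 0.895), and DSG1 also in the upper middle range, at 0.886 (0.812 to 0.967). The direction was the other in the top range for DSG1, at 1.13 (1.06 to 1.203), and in the lower middle range for DSC1, at 1.29 (1.03 to 1.62). The dividing cluster 18 held 23 fresh and 72 cryopreserved cells. There DSC1 was at 168 CPM fresh (126 to 221) and 78.1 CPM cryopreserved (61.0 to 98.5), past the 2-fold limit. This cluster also differed in stage between the libraries. From the basal range came 8 fresh against 57 cryopreserved cells, from the lower middle 6 against 11, and from the upper middle 7 against 3. KRT10 stood there at 3523 CPM fresh and 1144.5 CPM cryopreserved. The part of this stage difference in the DSC1 levels was not tested. With 1 library each, cryopreservation, the animal, the preparation and the depth cannot be told apart.

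**Figure D5:**
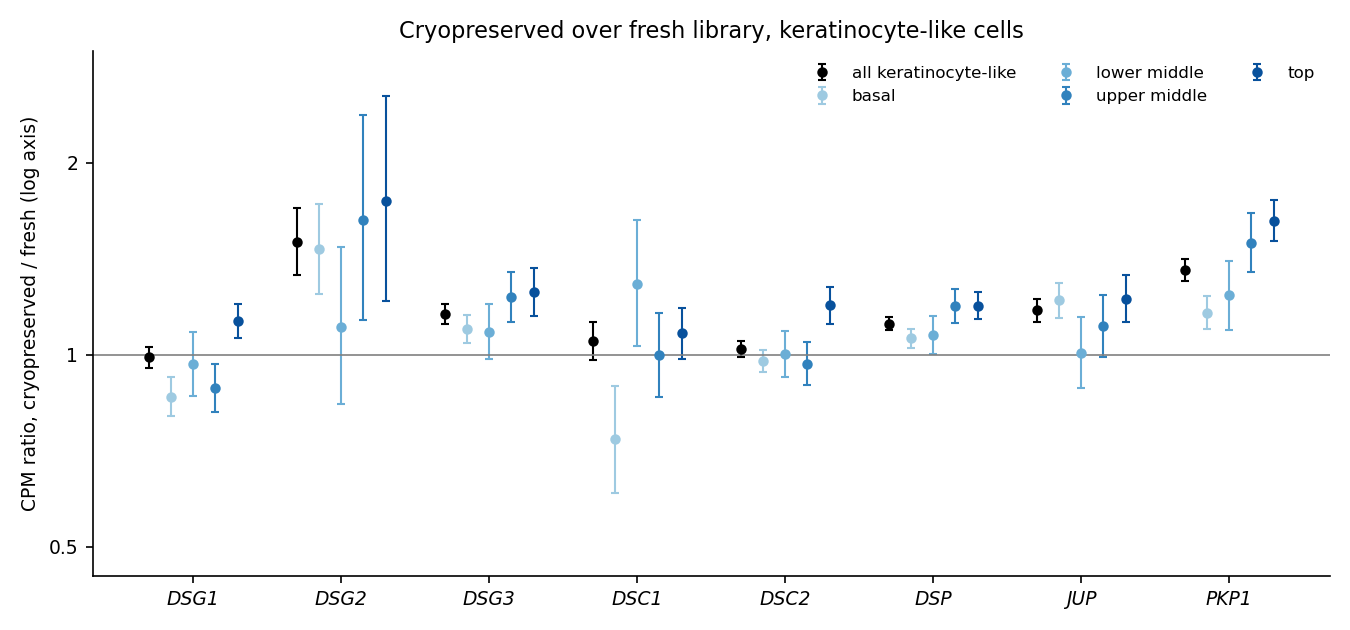
Ratio of CPM in the cryopreserved to the fresh library (log axis) for each desmosome gene, over all keratinocyte-like cells (black) and in each range (light to dark blue from basal to top). Bars are exact 95% intervals for counting error, and the line marks a ratio of 1. Over all keratinocyte-like cells PKP1 and DSG2 lie highest, and no gene reaches 2.

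Other junction and differentiation genes were read on the same contrast of top to basal range. The counts of every list below stand beside the shares over all genes tested. At least 2-fold higher were 4.61% of fresh and 4.60% of cryopreserved genes, and at least 2-fold lower 16.8% and 15.5%. Of 9 other desmosome and corneodesmosome genes, 6 had enough UMIs in fresh cells and 7 in cryopreserved cells. PERP, a tetraspan protein of desmosomes, and EVPL, the plaque protein envoplakin, were at least 2-fold higher in both libraries. PERP went from 2142 to 5650 CPM in the fresh and from 2073 to 5587 CPM in the cryopreserved library. EVPL went from 18.6 to 48.0 and from 21.5 to 90.9 CPM. PKP3 had ratios of 1.32 and 1.78, PKP4 0.992 and 0.910, and PPL, periplakin, 1.18 and 1.52. KAZN, kazrin, had ratios of 0.365 and 0.509. The median log2 ratio of the list was 0.32 and 0.61. Of 9 adherens junction genes, only NECTIN4 was at least 2-fold higher in both, with NECTIN1 beside it in the cryopreserved library, and none was lower. CDH1, E-cadherin, was nearly level, at 752 and 770 CPM in the basal and top range of the fresh library and 743 and 845 CPM in the cryopreserved library. The median of this list was 0.03 and 0.19.

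Hemidesmosome genes, which fix basal cells to the basement membrane, ran against the desmosome genes. Of 6, all but CD151 were at least 2-fold lower in the fresh top range, beside 16.8% of all genes. In the cryopreserved library all 6 were, beside 15.5%. The median log2 ratios of the list were -4.07 and -3.26. COL17A1 went from 1650 to 51.9 CPM and from 1513 to 77.7 CPM. ITGB4 and DST reached the minimum of UMIs only through the basal range, which partly set their direction. In the fresh top range they had 7 and 17 UMIs. All 8 envelope and granular genes with enough UMIs were at least 2-fold higher in the fresh library, beside 4.61% of all genes. In the cryopreserved library 7 of 8 were, beside 4.60%, with KRTDAP and SBSN among them in both. Fresh IVL, CALML5 and TGM1 reached the minimum of UMIs only through the top range, which partly set their direction. They had 74, 87 and 51 UMIs there and 1, 3 and 17 in the basal range. The same held for CALML5 and TGM1 in the cryopreserved library. Among 9 epidermal transcription factors, KLF4, GRHL1, GRHL3 and MAF were at least 2-fold higher and TP63 lower in both libraries. Over all genes 4.61% and 4.60% were higher and 16.8% and 15.5% lower. GRHL3 had ratios of 10.9 and 9.18, and TP63 went from 1220 to 378 CPM and from 969 to 384 CPM. Of the desquamation genes, 2 had enough UMIs, and SPINK5, a protease inhibitor, was higher in both, with ratios of 3.42 and 2.86. The only dividing-cell gene with enough UMIs in the fresh library, DIAPH3, was at least 2-fold lower in the top range, as were all 6 in the cryopreserved one. These genes reached the minimum only through the basal range, which partly set their direction. DIAPH3 had 133 UMIs in the fresh basal and 12 in the fresh top range. Of CDH5, CLDN5, PECAM1 and TJP1, 2 had enough UMIs and neither passed the limit.

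The genes closest in pattern to each desmosome gene were sought over the 4 keratinocyte-like clusters in both libraries, 8 points that share their libraries, among 7751 genes. They are given as a description. By Pearson's r of log2(CPM + 10), DSG1 was closest to CLDN1 (0.987), KLF4 (0.984) and RAB25 (0.981), and DSC1 to ALDH3B2 (0.996), LAMTOR2 (0.983) and GLTP (0.983). DSG3 was closest to ATP5F1A (0.973), CTSC (0.967) and RHOV (0.956), and DSG2 to TPRKB (0.959), PAK4 (0.954) and ENSSSCG00000007743 (0.944). For DSC2 these were PPP1R3B (0.968), CLIP1 (0.963) and SCD (0.954), and among those of DSP were ETHE1 (0.972) and PON2 (0.970). JUP was closest to HES4 (0.990), GLRX5 (0.982) and RHOV (0.981), and PKP1 to METTL26 (0.982), LAD1 (0.981) and ZDHHC18 (0.974). Among the 8 genes themselves the highest r were those of DSG1 with DSC1 (0.925) and DSP with JUP (0.918), and the lowest was that of DSC2 with PKP1 (-0.065).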

How the data were processed

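Per the labels and the study's methods, the authors mapped 10x 3′ reads with Cell Ranger 4.0.0 (STAR 2.5.1b) to Sscrofa11.1 with the Ensembl annotation and deposited UMI counts per gene and barcode, without normalization (4379 fresh barcodes with 53271738 UMIs, 4860 cryopreserved with 42217632). Cells with at most 4500 genes, 30000 UMIs and 10% mitochondrial UMIs (13 genes) were kept. Libraries were integrated with Seurat 5.3.0 (2000 variable genes without the desmosome genes, 30 dimensions, Louvain resolution 0.8). Clusters were named from at least 3 markers found in 10% of their cells at 2-fold the median cluster, a rule set after a first output was seen. 3 clusters with 151 fresh and 259 cryopreserved cells stayed unnamed. Among them cluster 16, of 68 fresh and 82 cryopreserved cells, had 5 such markers of a lineage. A further rule left it unnamed, because its median of 2635 UMIs was low and its 10 leading genes held no marker of that lineage. Beyond the authors' sorting and the limits on genes and UMIs, no doublets were removed here.

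UMIs were summed per library, cluster or range and scaled to CPM. Intervals are exact Poisson, Clopper-Pearson, or conditional binomial for ratios (95%). They were run on simulated Poisson counts, which follow the model they assume and lack the spread between cells. The intervals cover counting error only. An arm with no UMI was set to 3. Genes were named as follows: all members, list genes past 2-fold in both libraries, and the 3 most alike genes, of which 1 for DSP is not reported here. Members and lists were chosen with earlier results of these data known. Alternatives were the cell filters, features, resolutions 0.4 and 1.2, merging without integration, TMM factors, cell means, leaving out the richest cell or the 6% highest Scrublet scores (scanpy 1.11.5), keratin minimum, range boundaries and gene minimum. Promoter sequences come from RefSeq's Sscrofa11.1 genome, as the 250 bases before each annotated gene start.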

Additional observations from a re-analysis of the deposited data

Results flagged for a closer look

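The KRT15 comparison of DSG2 pointed in opposite directions in the 2 libraries. In the basal range the log2 ratio of KRT15-rich to KRT15-poor cells was -0.58 in the fresh library, from 42.02 against 63.0 CPM, and 0.17 in the cryopreserved library, from 88.7 against 78.8 CPM. The cryopreserved interval of 0.903 to 1.40 for the ratio includes 1, the counts were 64 and 86 UMIs in the fresh and 161 and 177 in the cryopreserved library, and the difference between the libraries was not tested. Within cluster 2 alone the log2 ratios were -0.19 and 0.10, and within cluster 10 alone 0.51 and 0.02. Without the UMIs of the DSG2-richest cell of each group the cryopreserved log2 ratio was -0.03.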

How the results depend on the processing

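No paired analysis was possible because each condition holds 1 library, and the results come from no test. The count of genes at least 2-fold lower in the fresh top range went from 0 to 1 (DSG2, log2 ratio -1.01) with all barcodes. The counts at least 2-fold higher, 4 fresh and 5 cryopreserved, ranged from 3 to 5 and from 4 to 5, with DSP and JUP lying at the limit. All 8 genes stayed highest in keratinocyte-like cells under every alternative run for it, and none passed 2-fold between the libraries over all keratinocyte-like cells. Of 240 recomputed stage ratios 203 stayed within their counting interval, of 96 library ratios 92, and of 272 KRT15 ratios 254. No ratio past 2-fold changed sign. Below it some did. The DSG2 log2 ratio of KRT15-rich to KRT15-poor cells ranged from -0.81 to 0.51 in the fresh and from -0.03 to 0.36 in the cryopreserved library. The log2 ratios between the libraries of DSG1, from -0.07 to 0.04, and DSC2, from -0.004 to 0.08, also changed sign. The fresh DSG3 stage log2 ratio of 0.29 was -0.28 with stage read from KRT5 and KRT1 alone. Without the UMIs of the richest cell of each range it was 0.14. The cryopreserved DSG3 ratio of 0.48 was 0.06 with KRT5 and KRT1 alone, and the cause was not tested. TMM factors moved every fresh and cryopreserved stage ratio up by 0.16 and 0.14 on the log2 scale, which put DSP in the fresh library at 1.05. Depth limits DSG2 most, with 44 UMIs in the fresh top range.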
